A study of Canis lupus familiaris with 55 samples.

Results

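Tight junction genes of cords and epithelium were examined in embryonic canine gonads: *CLDN1*, *CLDN3*, *CLDN6*, *CLDN7*, *CLDN11*, *OCLN*, *TJP1* and *TJP3*. They are the loci of the transcript assembly of the study whose only gene name was one of 9 listed names, so 8 genes were found among 58781 loci, of which 23598 carried exactly 1 gene name. The listed gene *CLDN5* was not analysed here. No measured value entered the choice of the loci, although the names were listed with earlier results of these data in view.

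Tight junctions seal the space between neighbouring epithelial cells and separate the upper from the lateral cell surface. Claudins and occludin span the membrane and form the sealing strands, and zonula occludens proteins anchor those strands to the actin cytoskeleton. In the testis, Sertoli cells enclose germ cells in cords and join to each other by such junctions, and claudin-11 is a main strand protein of the Sertoli cell junction. Whether such junctions had formed in the embryonic gonads studied here was not examined, since RNA alone was measured. In the ovary, epithelial junctions are known from the surface epithelium.

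RNA of whole embryonic gonads was measured in 55 polyA RNA-seq libraries from a canine model of XX disorder of sex development (DSD), in which *SRY*-negative XX dogs form testes or ovotestes. XX DSD gonads at risk came from XX, *SRY*-negative embryos of the model pedigree, a cross of American cocker spaniels and beagles, and their XY littermates were *SRY*-positive. Embryos of both of these groups were homozygous or heterozygous for a guanine insertion on CFA9, and age-matched XX and XY controls were wild type there and came from beagle parents outside the pedigree, so that breed differed in every comparison of pedigree. No embryo was treated.

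Libraries of single embryos numbered 9 XX DSD and 4 XY littermates at d35, 8 and 5 at d37-39, and 6 and 3 at d41-44. Age-matched controls numbered 6 XX and 6 XY at d37-39, and 3 XX and 3 XY at d44. Controls of d34 were 1 XX library, a pool of 6 embryos, and 1 XY library, a pool of 7. Which XX DSD embryos would have formed testicular tissue is not known, so these gonads were at risk and not affected by label. Controls came from 2 litters at d37-39 and from 1 litter at d44, while XX DSD gonads represented 4 litters each at d35, d37-39 and d41-44. The study pooled libraries for sequencing by group, so that pedigree, litter and sequencing pool cannot be told apart. At d41-44 every control was of d44, whereas 1 of 6 XX DSD embryos was, so age differed there as well. The XY littermates were 1 of d41 and 2 of d42, so age and pedigree cannot be told apart in XY gonads there. XX DSD replicates 1 and 2 and XY littermate replicate 1 of d41-44 are those labelled d41. The study's table of embryos lists them as younger and its authors placed them by stage of development, so their age is uncertain. That table lists every XX DSD embryo of d41-44 as homozygous for the insertion and the XY littermates of d42 as heterozygous. Sex and insertion genotype were thus partly mixed in the model pedigree at d41-44. Among XX DSD embryos, heterozygotes were a smaller part at d37-39 than at d35, so genotype shifted with age there. The part of genotype in these comparisons was not tested.

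Expression is given in FPKM, fragments scaled to transcript length and to the mapped fragments of a library. Groups were compared with limma on log2(FPKM + 1) over all loci that averaged 1 FPKM or more in one of the groups, and a difference was called at a Benjamini-Hochberg adjusted p under 0.05. Differences on this scale understate the change of genes at low levels. Read totals are unknown, but the spacing of low values gave relative depths from 0.139 to 1 of the deepest library. In 4 libraries of d37-39, XY control replicate 2 and XY littermate replicates 3, 4 and 5, between 18965 and 20913 loci reached 1 FPKM, against 14418 to 17145 in the other 51, while their loci with a gene name numbered 11783 to 12527, against 11571 to 12202. Comparisons with XY littermates of d37-39 tested 31172 to 38909 loci, and the others 17200 to 25231. Shares of tested loci and adjusted p rest on these numbers. *SOX9*, an autosomal gene of testis determination, averaged 56 to 79.7 FPKM in XY groups and 2.81 to 4.47 FPKM in XX groups. *FOXL2*, a factor of granulosa cells, averaged 6.95 to 48.5 FPKM in XX groups, 2.68 FPKM in the XY pool of d34 and at most 0.74 FPKM in the other XY groups. In whole gonads, fewer cells of a type and less RNA per cell cannot be told apart.

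In the CanFam3 assembly, *CLDN1* lies on the minus strand of CFA34 from 22302592 to 22319496 and *CLDN11* on the plus strand from 34911268 to 34929809. *CLDN3* is a single exon of 1009 bases on the plus strand of CFA6 from 6534229 to 6535237. *CLDN6* lies on the plus strand of CFA6 from 38168828 to 38171811, where its first bases overlap *TNFRSF12A* on the other strand. *CLDN7* lies on the minus strand of CFA5 from 32224071 to 32226385, within the span of a plus-strand locus named for *ACADVL* and *TMEM102*. *OCLN* lies on the plus strand of CFA2 from 54492303 to 54549098. *TJP1* lies on the minus strand of CFA3 from 38994466 to 39241319, overlapping ENSCAFG00000026711, and *TJP3* on the minus strand of CFA20 from 55720729 to 55747466, overlapping *APBA3*. The library kit does not mark strand, so reads from overlapping stretches cannot be told apart, and values of *CLDN6*, *CLDN7*, *TJP1* and *TJP3* carry that uncertainty.

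*CLDN11*, the claudin of the Sertoli cell junction, was higher in XY than in XX gonads at every age and in both pedigrees. At d37-39, XY control values were 111.7, 120.3, 155.2, 97.6, 133.5 and 111.9 FPKM. XX control values ranged from 1.55 through a median of 2.23 to 6.25 FPKM. The highest XX control thus lay far below the lowest XY control, and the groups did not overlap. Means were 2.95 ± 1.82 FPKM (SD, n = 6) in XX and 121.7 ± 20.2 FPKM (SD, n = 6) in XY controls, 41.3-fold apart. The XX minus XY difference on the log2 scale was -5.05 ± 0.24 (SE, adjusted p = 9.7e-09).

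At d44, XX control values of *CLDN11* were 3.32, 2.95 and 3 FPKM. XY control values were 52.2, 107.6 and 43.2 FPKM, and no XX value came near them (log2 difference -3.95 ± 0.33 (SE), adjusted p = 0.00061, n = 3 and 3). In the model pedigree at d35, XX DSD gonads held 7.36 to 27.6 FPKM with a median of 15.8 FPKM. Their XY littermates held 107.1, 123.5, 169.7 and 124.4 FPKM, so the distance between the sexes was already present, at 8.01-fold (log2 difference -3.04 ± 0.32 (SE), adjusted p = 2.3e-05, n = 9 and 4).

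XX DSD gonads of d37-39 ranged from 1.35 through a median of 3.51 to 13 FPKM of *CLDN11*. XY littermates of that age held 94.6, 73, 96.3, 142.1 and 182.4 FPKM. The highest XX DSD value belonged to replicate 1 and remained below every XY littermate, and the means were 23.7-fold apart (log2 difference -4.45 ± 0.37 (SE), adjusted p = 2.2e-06). At d41-44, XX DSD gonads ranged from 0.736 through 1.8 to 5.79 FPKM, against 183.8, 117.3 and 65.6 FPKM in XY littermates. The means were 52.2-fold apart and the groups did not overlap (log2 difference -5.22 ± 0.43 (SE), adjusted p = 3.6e-05).

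Within XX gonads of the model pedigree, *CLDN11* fell by 1.63 ± 0.33 (SE) on the log2 scale from d35 to d37-39 (adjusted p = 0.0082), from a mean of 16.4 ± 7.55 FPKM (SD, n = 9) to 4.97 ± 3.88 FPKM (SD, n = 8). The groups overlapped, since replicates 1 and 2 of the older group, at 13 and 8.72 FPKM, exceeded the lowest of d35. Between d35 and d37-39 the XY littermates did not pass the test, with a log2 difference of -0.21 and a 95% interval from -0.8 to 0.38. XX DSD gonads did not pass the test against XX controls at d37-39 (log2 difference 0.49, 95% interval from -0.29 to 1.27) or at d41-44 (-0.43, from -1.25 to 0.38). In the second of these, leaving out XX DSD replicate 1, the highest value of its group, moved the difference to -0.66 with an adjusted p of 0.034.

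**Figure D1:**
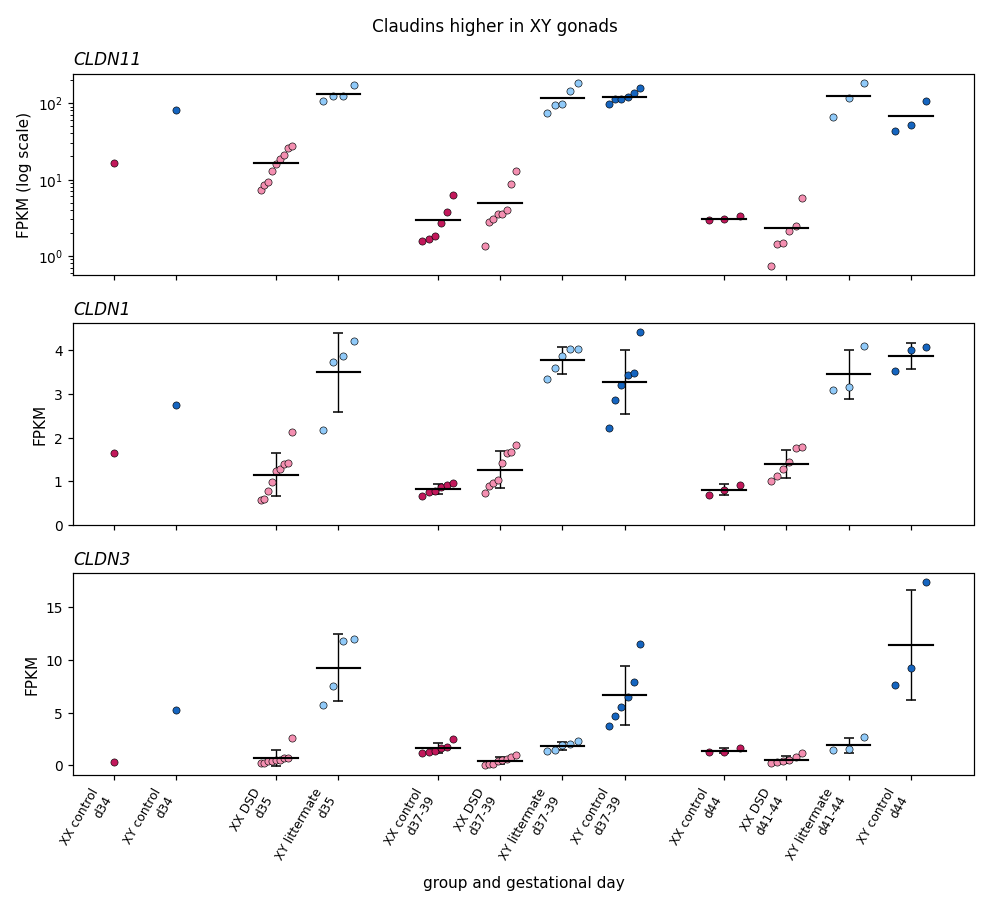
Each dot is 1 library, placed by group along the horizontal axis, with FPKM of *CLDN11* (log axis), *CLDN1* and *CLDN3* on the vertical axes, black lines for group means and bars for SD in the linear panels. The XY groups of *CLDN11* sit between 43.2 and 183.8 FPKM and the XX groups from d37 on between 0.736 and 13 FPKM, while *CLDN3* of XY littermates from d37 on lies below XY controls.

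*CLDN1*, a widespread barrier claudin best known from the epidermis, was also higher in XY gonads in all 5 comparisons of the sexes. XX control values of d37-39 ranged from 0.673 through 0.821 to 0.97 FPKM. XY control values ranged from 2.22 through 3.31 to 4.41 FPKM. No library of one sex reached the other, and the means were 3.95-fold apart (log2 difference -1.21 ± 0.13 (SE), adjusted p = 1.2e-05, n = 6 and 6). At d44, the XX controls held 0.689, 0.927 and 0.81 FPKM and the XY controls 3.52, 4.07 and 4 FPKM, 4.78-fold apart (log2 difference -1.43, adjusted p = 0.00086).

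XX DSD gonads held slightly more *CLDN1* than XX controls by their means, 1.27 ± 0.414 FPKM (SD, n = 8) against 0.827 ± 0.114 FPKM (SD, n = 6) at d37-39. That difference did not pass the test (log2 difference 0.29, 95% interval from -0.05 to 0.63). At d41-44 the 6 XX DSD values, from 1.01 to 1.79 FPKM, did not overlap the 3 XX control values, but the adjusted p was 0.066. It was 0.0494 without XX DSD replicate 5. XY littermates exceeded XX DSD gonads without overlap at d35 (log2 difference -1.07, adjusted p = 0.0018), d37-39 (-1.09, adjusted p = 0.0024) and d41-44 (-0.89, adjusted p = 0.0018). With litter as a factor, over litters with both sexes, *CLDN1* was not called at d35 (adjusted p = 0.11) or at d41-44 (adjusted p = 0.055).

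*CLDN3*, a sealing claudin of many simple epithelia, differed by sex and, in both XX and XY gonads of d37-39, by pedigree. XY control values of d37-39 were 7.84, 5.49, 4.63, 11.5, 6.51 and 3.76 FPKM. XX control values ranged from 1.19 through 1.53 to 2.5 FPKM. The sexes did not overlap and the XX minus XY difference was -1.48 ± 0.21 (SE, adjusted p = 0.00017) on the log2 scale.

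At d44, the XX controls held 1.25, 1.22 and 1.69 FPKM of *CLDN3* and the XY controls 17.3, 7.57 and 9.22 FPKM. The log2 difference was -2.3 ± 0.29 (SE, adjusted p = 0.0028), and XY control replicate 1 was the highest library of all. At d35 in the model pedigree, XX DSD gonads ranged from 0.189 through 0.513 to 2.59 FPKM and XY littermates held 5.67, 7.49, 11.8 and 12 FPKM (log2 difference -2.62 ± 0.27 (SE), adjusted p = 1.9e-05).

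XY littermates of d37-39 held 2.29, 1.92, 2.01, 1.47 and 1.34 FPKM of *CLDN3*, all below the lowest XY control of that age. Their mean was 3.66-fold below that of XY controls (log2 difference -1.38 ± 0.24 (SE), adjusted p = 0.038). It had been 9.23 ± 3.15 FPKM (SD, n = 4) at d35, and the fall to 1.81 ± 0.394 FPKM (SD, n = 5) passed the test (log2 difference -1.82 ± 0.24 (SE), adjusted p = 0.0021). At d41-44, XY littermates held 1.47, 1.51 and 2.73 FPKM, against 17.3, 7.57 and 9.22 FPKM in XY controls of d44. The groups did not overlap and the log2 difference was -2.04 ± 0.32 (SE, adjusted p = 0.029).

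*CLDN3* was also lower in XX DSD gonads than in XX controls of d37-39, at 0.45 ± 0.335 FPKM (SD, n = 8) against 1.62 ± 0.488 FPKM (SD, n = 6), without overlap (log2 difference -0.87 ± 0.21 (SE), adjusted p = 0.012). At d41-44 the groups did not overlap either, but the adjusted p was 0.0514, and 0.028 without XX DSD replicate 6. The sexes of the model pedigree did not overlap at d37-39, where *CLDN3* missed the test (log2 difference -0.97, 95% interval from -1.63 to -0.32, adjusted p = 0.078), and passed it at d41-44 (-0.91, adjusted p = 0.028). Over loci with 1 gene name alone, the d37-39 difference was called (adjusted p = 0.0012), an alternative chosen after the data had been seen. The d41-44 call was lost with litter as a factor (adjusted p = 0.18), and without XX DSD replicate 3, 4 or 5 or XY littermate replicate 2 or 3, with adjusted p from 0.0503 to 0.11.

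*CLDN6*, a claudin of embryonic epithelia and pluripotent cells, was higher in XX than in XY controls of d37-39. XX control values were 5.15, 4.52, 3.35, 6.07, 5.55 and 9.93 FPKM. XY control values were 0.64, 2.43, 4.01, 5.63, 1.66 and 1.76 FPKM. The groups overlapped, and the log2 difference was 0.96 ± 0.31 (SE, adjusted p = 0.037). The call held in 4 of 12 fits that left out 1 library, those without XX control replicate 2 or 3 or XY control replicate 3 or 4, and was lost without any of the other 8, with adjusted p up to 0.085. With d39 embryos alone it was lost too (adjusted p = 0.12).

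XX DSD gonads of d37-39 held less *CLDN6*, from 0.81 through a median of 1.82 to 4.89 FPKM. The mean was 2.15 ± 1.36 FPKM (SD, n = 8), 2.68-fold below XX controls (log2 difference -1.15 ± 0.26 (SE), adjusted p = 0.01), and the groups overlapped. At d41-44, XX DSD gonads ranged from 0.45 through 1.44 to 3.84 FPKM and XX controls held 2.68, 3.29 and 4.46 FPKM. That difference was not called (log2 difference -0.89, 95% interval from -1.68 to -0.1, adjusted p = 0.062). Without XX DSD replicate 6, the highest value of its group, it was -1.09 with an adjusted p of 0.0075.

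In XY gonads, *CLDN6* of littermates at d41-44 was 0.674, 0.546 and 0.771 FPKM, and that of XY controls of d44 was 4.44, 2.69 and 2.22 FPKM. Every littermate lay below every control (log2 difference -1.27 ± 0.26 (SE), adjusted p = 0.038). At d37-39 the same contrast gave -0.67, with a 95% interval from -1.55 to 0.21. Between XX and XY controls of d44 *CLDN6* did not pass the test, at a log2 difference of 0.14 and an interval from -0.45 to 0.73.

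*CLDN7*, a claudin of simple epithelia that binds the adhesion protein EpCAM, had a similar order of group means at lower levels. XX control values of d37-39 were 2.92, 2.86, 2.24, 3.5, 4.62 and 7.1 FPKM. XY control values were 0.916, 1.1, 0.977, 3.94, 1.46 and 1.15 FPKM. All XY controls but replicate 4 lay below the lowest XX control, and the log2 difference was 0.93 ± 0.26 (SE, adjusted p = 0.019). With d39 embryos alone the adjusted p was 0.14. XX DSD gonads of that age ranged from 0.551 through 1.08 to 2.32 FPKM, which barely met the XX controls (log2 difference -1.02 ± 0.22 (SE), adjusted p = 0.0073).

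XY littermates of d41-44 held 0.0774, 0.148 and 0.281 FPKM of *CLDN7*, against 3.57, 2.88 and 2.18 FPKM in XY controls of d44. The means were 17.1-fold apart without overlap (log2 difference -1.72 ± 0.27 (SE), adjusted p = 0.029). XY littermates of d37-39 held 0.283, 0.867, 1.43 and 1.33 FPKM, and *CLDN7* was listed at 0 in replicate 4. That contrast with XY controls was not called (log2 difference -0.53, 95% interval from -1.36 to 0.3). At d41-44, XX DSD gonads did not pass the test against XX controls either (-0.64, from -1.52 to 0.24). XX controls of d44 held 2.37, 1.33 and 2.73 FPKM, which overlapped the XY controls of that age (log2 difference -0.32, 95% interval from -0.87 to 0.24).

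*TJP3* encodes zonula occludens 3, the scaffold of this family with the most epithelial distribution, and it was the gene of the 8 that passed the test between XX DSD gonads and XX controls at both ages. XX control values of d37-39 were 7.28, 4.97, 3.93, 10.3, 7.89 and 12.2 FPKM. XX DSD gonads ranged from 1.19 through 2.19 to 3.26 FPKM. All 8 XX DSD values lay below all 6 control values, 3.75-fold by the means (log2 difference -1.47 ± 0.23 (SE), adjusted p = 0.001). At d41-44, XX DSD gonads held 1.4 to 3.87 FPKM with a median of 2.58 FPKM and XX controls 7.84, 8.35 and 8.35 FPKM, again without overlap (log2 difference -1.37 ± 0.22 (SE), adjusted p = 0.0007).

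XX controls also exceeded XY controls in *TJP3*. XY control values were 1.94, 2.77, 1.74, 4.16, 1.81 and 1.54 FPKM at d37-39, where only replicate 4 reached into the XX range (log2 difference 1.36 ± 0.25 (SE), adjusted p = 0.0011). At d44 they were 3.27, 2.16 and 1.96 FPKM, below every XX control (1.42 ± 0.15 (SE), adjusted p = 0.0015). XX DSD gonads exceeded XY littermates at d41-44 (0.93 ± 0.26 (SE), adjusted p = 0.026), although the lowest XX DSD value, 1.4 FPKM, met the highest littermate, 1.41 FPKM. This call was lost with litter as a factor (adjusted p = 0.2), without XX DSD replicate 3 or 6 (adjusted p = 0.052 and 0.0501) and without XY littermate replicate 1 or 2 (adjusted p = 0.078 and 0.1).

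At d37-39, *TJP3* in XY littermates was 1.02, 0.272, 1.09, 0.177 and 0.181 FPKM, all below XX DSD gonads and below XY controls. The adjusted p was 0.059 against XX DSD gonads (log2 difference 1, 95% interval from 0.36 to 1.63) and 0.11 against XY controls (-1.11, from -1.79 to -0.43). Over loci with 1 gene name alone both were called (adjusted p = 0.0036 and 0.02), and the first also without XY littermate replicate 3 (adjusted p = 0.031).

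**Figure D2:**
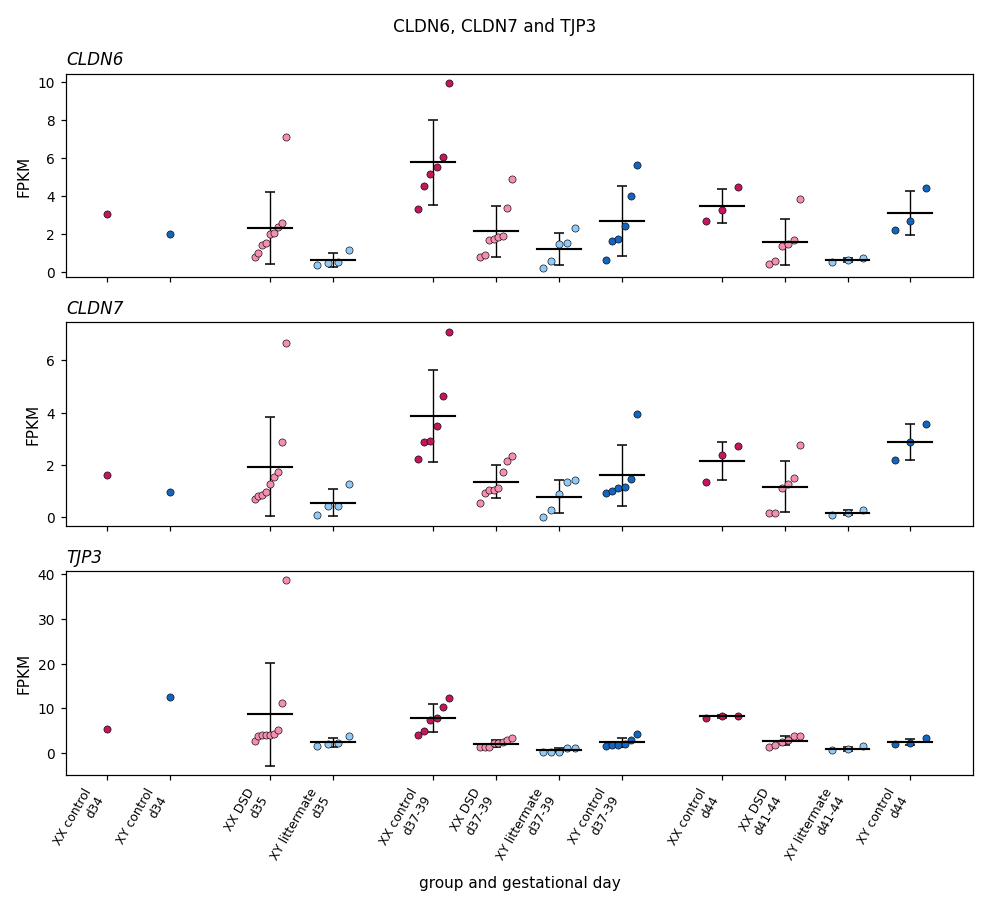
FPKM of *CLDN6*, *CLDN7* and *TJP3* on the vertical axes, 1 dot for each library in groups along the horizontal axis, with the group mean as a black line and bars for SD. XX controls of d37-39 reach 9.93, 7.1 and 12.2 FPKM, and the XX DSD group of d35 holds 1 library with 38.6 FPKM of *TJP3*.

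*OCLN* encodes occludin, the founding membrane protein of the tight junction, and did not pass the test in any of the 13 comparisons of 2 groups. XX control values of d37-39 were 2.45, 2.53, 2.71, 3.11, 3.17 and 3.54 FPKM, and XY control values ranged from 1.04 through 2.03 to 3.1 FPKM. The XX values were higher by the means, and the ranges overlapped (log2 difference 0.38, 95% interval from 0.05 to 0.71, adjusted p = 0.089). With litter as a factor this difference was called (adjusted p = 0.03), as it was without XY control replicate 4 (adjusted p = 0.029).

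Among the 10 groups of single embryos, *OCLN* means were lowest at d35, 1.73 ± 0.674 FPKM (SD, n = 9) in XX DSD gonads and 1.12 ± 0.326 FPKM (SD, n = 4) in XY littermates. At d37-39 they were 2.88 ± 0.699 FPKM (SD, n = 8) and 2.28 ± 0.668 FPKM (SD, n = 5), and the 2 ages of XY littermates did not overlap. The age differences were 0.53 (95% interval from 0.18 to 0.88, adjusted p = 0.075) in XX DSD gonads and 0.62 (from 0.01 to 1.23, adjusted p = 0.23) in XY littermates. Both were called over loci with 1 gene name alone (adjusted p = 0.042 and 0.024).

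*TJP1* encodes zonula occludens 1, a scaffold of tight junctions that is also found in cells without them, and was the most even of the 8 genes. Its group means lay between 29.6 and 42.3 FPKM in the 10 groups of single embryos. XX DSD gonads of d37-39 held 35.7 to 46.1 FPKM with a median of 40.1 FPKM, and XX controls 33.2 to 36.2 FPKM with a median of 34.7 FPKM. The rise was small, 1.17-fold (log2 difference 0.21 ± 0.06 (SE), adjusted p = 0.023). It was lost without XX control replicate 4 (adjusted p = 0.0511) or 5 (adjusted p = 0.0537), and with d39 embryos alone (adjusted p = 0.18).

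XX controls of d44 held 40, 46.4 and 40.5 FPKM of *TJP1*, above all XX controls of d37-39 (log2 difference 0.27 ± 0.06 (SE), adjusted p = 0.044). XY littermates rose from 34 ± 1.79 FPKM (SD, n = 4) at d35 to 40.1 ± 2.3 FPKM (SD, n = 5) at d37-39 (0.23 ± 0.06 (SE), adjusted p = 0.038). The call in XX controls held without XX control d37-39 replicate 6 and was lost without any of the other 8 libraries, with adjusted p up to 0.15. The call in XY littermates held without replicate 4 of either age and was lost without any of the other 7 libraries, with adjusted p up to 0.11. In the 5 comparisons of the sexes *TJP1* did not pass the test. XX and XY controls of d44 did not overlap, with a log2 difference of 0.57 and a 95% interval from -0.13 to 1.28. The lowest values of *TJP1* in any library were 14.5 FPKM in XX DSD d35 replicate 8 and 17.1 FPKM in XY control d44 replicate 1.

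**Figure D3:**
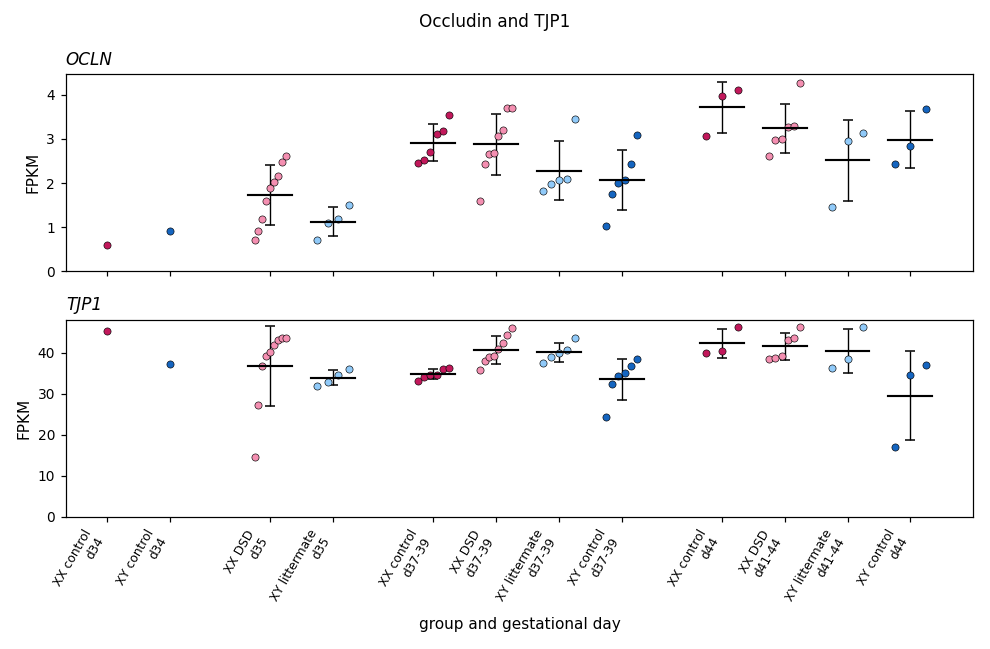
FPKM of *OCLN* and *TJP1* on the vertical axes, 1 dot for each library in groups along the horizontal axis, with group means as black lines and bars for SD. Means of *TJP1* in groups of single embryos lie between 29.6 and 42.3 FPKM, and single libraries of XX DSD d35 and XY control d44 lie at 14.5 and 17.1 FPKM.

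Read by comparison, XX controls of d37-39 had 3 of the 8 genes higher than XY controls (*CLDN6*, *CLDN7*, *TJP3*), where 12.7% of all tested loci were higher, and 3 lower (*CLDN1*, *CLDN3*, *CLDN11*), where 13.8% were lower. The median log2 difference was 0.22 over the 8 genes and -0.01 over all 21171 loci tested. At d44, 1 gene was higher in XX controls (12.8% of tested loci) and 3 were lower (12.0%).

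In the model pedigree at d35, 0 genes were higher in XX DSD gonads than in XY littermates (8.30% of tested loci), with 2 at an unadjusted p under 0.05 by limma, and 3 were lower (13.1%). At d37-39, 0 were higher (3.41%), with 1 at an unadjusted p under 0.05, and 2 were lower (4.09%). Loci tested numbered 37554 at d37-39, 17200 at d35 and 19768 at d41-44, so shares and adjusted p of these ages have different bases. At d41-44, 1 was higher (12.8%) and 3 were lower (15.5%). *CLDN1* and *CLDN11* were the genes lower in XX gonads in each of the 5 comparisons.

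Between XX DSD gonads and XX controls of d37-39, 1 gene was higher (*TJP1*), against 5.65% of tested loci, and 4 were lower (*CLDN3*, *CLDN6*, *CLDN7*, *TJP3*), against 8.11%. The median log2 difference was -0.45 over the 8 genes and 0.09 over all loci tested. At d41-44, 0 were higher (19.3% of tested loci), with 1 at an unadjusted p under 0.05, and 1 was lower, *TJP3* (29.2%). With litter as a random block, which sets embryos of 1 litter as correlated, *TJP3* alone was called at d37-39, and adjusted p was 0.065 for *CLDN3*, 0.078 for *CLDN6*, 0.0545 for *CLDN7* and 0.093 for *TJP1*.

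Between XY littermates and XY controls of d37-39, 0 genes were higher (0.402% of tested loci), with 1 at an unadjusted p under 0.05, and 1 was lower, *CLDN3* (0.885%). Leaving out XY littermate replicate 1 or XY control replicate 6 kept this call, and leaving out any of the other 9 libraries, or setting litter as a random block, ended it, with adjusted p up to 0.35 over all alternatives. At d41-44, over 19137 tested loci against 32331 at d37-39, 0 were higher (2.63%), also 0 by unadjusted p. At that age 3 were lower (*CLDN3*, *CLDN6*, *CLDN7*), against 8.58%. The calls of *CLDN3* and *CLDN7* held without XY littermate replicate 3 or XY control replicate 3, and that of *CLDN6* without XY control replicate 3. Without any other single library they were lost, with adjusted p up to 0.14.

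By the stringent criteria of the study, a ratio of means of at least 2 and a mean of at least 4 FPKM beside the adjusted p, *CLDN6* and *TJP3* were lower in XX DSD gonads of d37-39 (1.52% of tested loci) and *TJP3* at d41-44 (5.02%). *CLDN3* alone was lower in XY littermates by these criteria, at d37-39 (0.609%) and at d41-44 (2.92%). None of the 8 genes was higher by them, against 0.511%, 1.13%, 0.170% and 0.455% of tested loci in the same order.

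Whether the pedigree difference itself differed between XX and XY gonads was tested as an interaction over 4 groups. At d37-39, 0 of 8 genes were called by limma, with 0 at an unadjusted p under 0.05 and 0% higher and 0.00514% lower among all loci tested. At d41-44, 0 of 8 were called, with 2 at an unadjusted p under 0.05 and 0.0397% higher and 0.0749% lower among all loci. The largest of these was *CLDN3*, whose XX difference exceeded its XY difference by 1.39 on the log2 scale (95% interval from 0.58 to 2.19, adjusted p = 0.17). Differences called in XX gonads alone or XY gonads alone are therefore not shown to be particular to that sex.

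**Figure D4:**
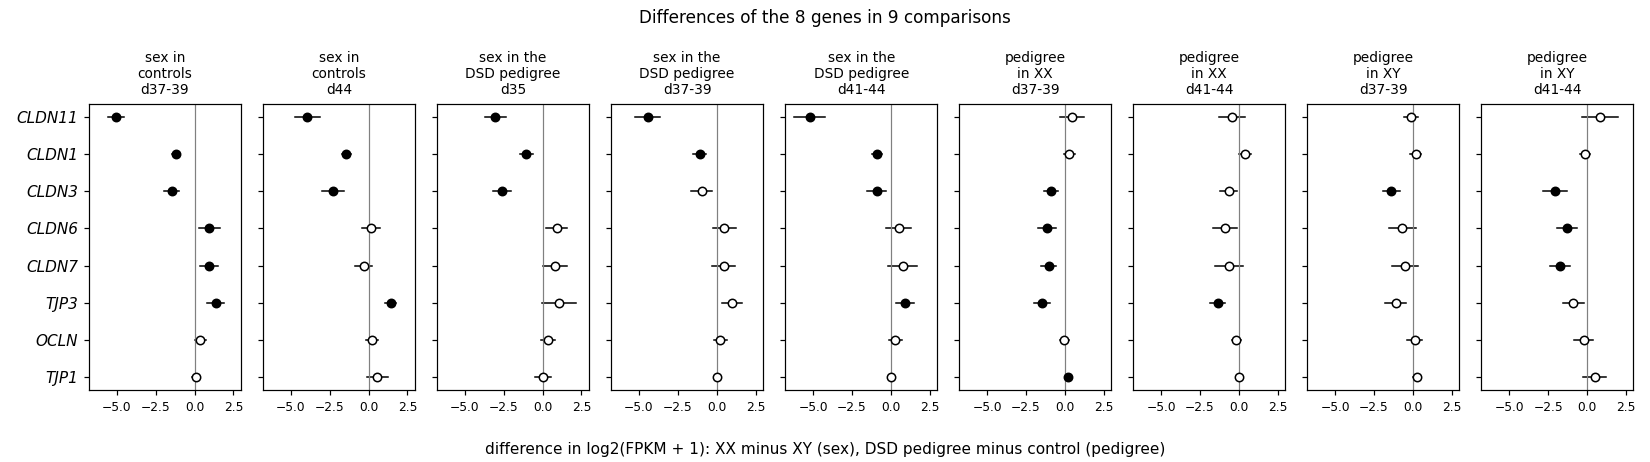
Log2 differences of the 8 genes, with 95% intervals, for the 5 comparisons of XX minus XY gonads and the 4 comparisons of the model pedigree minus controls; filled points have an adjusted p under 0.05. *CLDN11* lies between -5.22 and -3.04 in the sex comparisons, and *TJP3* of XX DSD gonads lies at -1.47 and -1.37 against XX controls.

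By age, 1 of 7 genes tested was higher in XX controls of d44 than of d37-39 (*TJP1*), against 1.96% of loci, and 0 were lower (0.646%), also 0 by unadjusted p. In XY controls, 0 of 8 were higher (0.0691%) and 0 were lower (0.0691%), with 0 and 1 at an unadjusted p under 0.05. The latter was *CLDN11*, with means of 121.7 and 67.6 FPKM and a log2 difference of -0.94 (adjusted p = 0.28), which was -1.32 with an adjusted p of 0.036 without XY control d44 replicate 2. From d35 to d37-39, 0 of 7 were higher in XX DSD gonads (1.46%), with 1 by unadjusted p, and 1 was lower, *CLDN11* (3.41%). In XY littermates, 1 of 7 was higher, *TJP1* (3.45%), and 1 was lower, *CLDN3* (8.01%). *CLDN1*, *CLDN3* and *CLDN7* were not tested in XX controls, XX DSD gonads and XY littermates, respectively, because neither mean reached 1 FPKM.

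*TJP3* of XX DSD gonads fell from 8.61 ± 11.5 FPKM (SD, n = 9) at d35 by the means, without passing the test (log2 difference -1.2 to d37-39, 95% interval from -1.97 to -0.43, adjusted p = 0.068). Without replicate 8 of d35 the difference was -0.88 and the adjusted p was 0.025, and without replicate 3 they were -1.31 and 0.042. In XY littermates *TJP3* averaged 2.36 ± 0.983 FPKM (SD, n = 4) at d35 and 0.548 ± 0.465 FPKM (SD, n = 5) at d37-39, without overlap and without a call (adjusted p = 0.11).

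Library depth moved with some of these comparisons. XX DSD gonads of d41-44 had a median relative depth of 0.306 and XX controls of d44 of 0.823, and XY littermates and XY controls of the same ages had 0.294 and 0.584. At d37-39 the medians were 0.566 and 0.614 in XX DSD gonads and XX controls. Gene density moved with the pedigree comparisons. Counting named loci within 1 Mb, *CLDN7*, *CLDN6* and *TJP3* stood at percentiles 98.8, 96.6 and 91.6 of all named loci and *CLDN3* at 73.9, while *CLDN11*, *OCLN*, *TJP1* and *CLDN1* stood at 55.9, 43.3, 35.6 and 13.5. Across named loci, which are not independent replicates, the pedigree difference and this density had Spearman's rho of -0.35 and -0.47 in XX and -0.33 and -0.45 in XY gonads, at d37-39 and d41-44. The median pedigree difference of the loci in the densest surroundings, as many as 3730, 3692, 3778 and 3701, was -0.20, -0.55, -0.18 and -0.43 in the same order, beside 0.04, 0.06, 0.05 and 0.10 for the rest. The sex comparisons had rho from -0.07 to 0.10. The part of depth and gene density in the lower values of *CLDN3*, *CLDN6*, *CLDN7* and *TJP3* was not tested.

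Since FPKM is scaled by transcript length, levels of the 5 claudins can be set beside each other. *CLDN11* made up 64.4% to 97.2% of their summed FPKM in every XY library of single embryos. At d35 it was also the largest in all 9 XX DSD gonads, at 59.9% to 84.2%. In XX controls of d37-39 it made up 7.56% to 44.9%, and *CLDN6* was the largest in 5 of 6. The XX DSD gonads of that age lay between 21.9% and 70.6%, with *CLDN11* the largest in 6 of 8 and *CLDN6* in 2. The sums themselves had medians of 13.9 FPKM in these XX controls and 9.5 FPKM in these XX DSD gonads, and *CLDN11* was not called between them. Shares lay between 23.7% and 32.2% in XX controls of d44 and between 13.3% and 52% in XX DSD gonads of d41-44. These shares are descriptions and were not tested.

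Within groups, *CLDN3*, *CLDN6*, *CLDN7* and *TJP3* often had their highest values in the same library. In each of the 10 groups of single embryos, the library with the highest *CLDN7* also had the highest *EPCAM*, which encodes the epithelial adhesion protein EpCAM. The same was true of *CLDN6* and *CLDN7* in 8 of 10 groups, of *CLDN3* with *CLDN6* in 7 and of *CLDN7* with *TJP3* in 7. *CLDN6* shared its highest library in 8 groups with *DPPA3* and *TFAP2C*, genes of early germ cells, and with *EPCAM*, *ESRP1* and *PRKCZ*. *CLDN3* shared its own in 7 groups with *TFAP2C*, *EPCAM*, *ESRP1* and *PRKCZ*. *TJP3* shared its highest library most often with *IRX5*, a gene of the pre-granulosa list, in 8 groups. Over all 83 listed genes compared with each of the 8, the median number of groups was 2 or 3. *EPCAM* was singled out after these values had been seen, so the counts are a description.

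**Figure D5:**
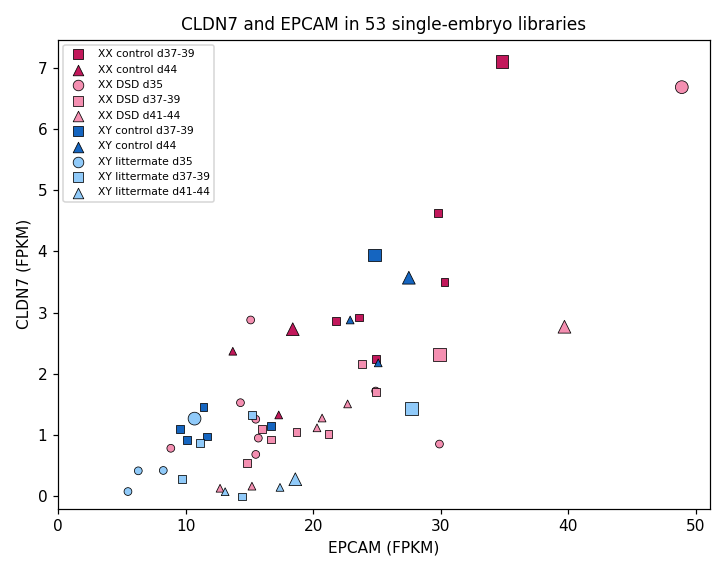
*EPCAM* (horizontal axis, FPKM) and *CLDN7* (vertical axis, FPKM) in the 53 libraries of single embryos, coloured by sex and pedigree and shaped by age. A large marker shows the library of each group that had the highest *CLDN7*. In each of the 10 groups that library also had the highest *EPCAM*. *CLDN7* and *EPCAM* were 7.1 and 34.8 FPKM in XX control d37-39 replicate 6, and 6.68 and 48.9 FPKM in XX DSD d35 replicate 8.

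One library stood apart from its group in several members. XX DSD d35 replicate 8 held 38.6 FPKM of *TJP3*, where the other 8 held 2.66 to 11.2 FPKM, and 7.09, 6.68, 2.59 and 2.12 FPKM of *CLDN6*, *CLDN7*, *CLDN3* and *CLDN1*, each the highest of its group. It held 27.6 FPKM of *CLDN11*, also the highest, where the others held 7.36 to 26.2 FPKM. Its *TJP1*, 14.5 FPKM, was the lowest of its group, where the others held 27.3 to 43.7 FPKM. In the same library the surface epithelium and mesothelium list summed to 315.1 FPKM, against 43.3 to 148.0 FPKM in the others, with *KRT19*, a keratin of simple epithelia, at 247.8 FPKM against 31.7 to 105.6 FPKM. Germ cell and interstitial lists also summed higher, 26.9 against 10.3 to 18.7 and 1882.6 against 890.6 to 1501.2 FPKM. Endothelial and Leydig and adrenal lists summed lower, 156.4 against 198.7 to 242.5 and 161.2 against 487.7 to 1052.0 FPKM. The Sertoli list lay within the others, at 472.9 against 368.2 to 663.2 FPKM. The pre-granulosa list summed to 68.7 FPKM, within the 58.8 to 127.9 FPKM of the others. Its defining gene *FOXL2* was the lowest of the group, 2.87 against 10.7 to 33.4 FPKM, as was *WNT4*, 10.6 against 14.9 to 27.6 FPKM. *IRX5*, *IRX3* and *BMP2* of that list were the highest of the group, at 2.78, 1.17 and 5.64 FPKM. These genes and lists were singled out here after their values had been seen. Its relative depth was 0.253, the lowest of the group. The part of depth and of these other markers in the members' values was not tested. Without this library the d35 calls of *CLDN1*, *CLDN3* and *CLDN11* held, and *CLDN6* was called higher in XX DSD gonads than in XY littermates (log2 difference 0.72, adjusted p = 0.023), as was *TJP3* (0.75, adjusted p = 0.0497). With it, they stood at 0.9 (95% interval from 0.21 to 1.58, adjusted p = 0.061) and 1.07 (from -0.02 to 2.16, adjusted p = 0.16).

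Levels of other cell markers moved with the members. The Sertoli list, of which 8 of 10 genes had a locus of their own, summed to 1291.0 to 2492.3 FPKM in XY controls and 772.5 to 1012.2 FPKM in XX controls of d37-39. Most of it was *PTGDS*, with means of 1482.8 and 869.9 FPKM, and the listed *AMH* had no locus. Of its tested genes, 7 of 7 were lower in XX controls, as *CLDN11* was, against 13.8% of all loci tested. The Leydig and adrenal list, 4 of 8 with a locus, summed to 4070.0 to 7517.0 FPKM in XY and 383.3 to 2315.5 FPKM in XX controls of that age. All 4 of its tested genes were lower in XX controls at an unadjusted p under 0.05 by limma. The share of all loci at that unadjusted threshold was not worked out, so this count has no baseline. By adjusted p, 13.8% of all loci tested were lower. The list of epithelial adhesion and keratin genes, 7 of 10 with a locus, summed to 60.6 to 95 FPKM in XX and 23.2 to 46.9 FPKM in XY controls of that age. It had 4 of 5 tested genes higher in XX (*PKP2*, *KRT19*, *EPCAM* and *DSP*), against 12.7% of all loci tested. In XX DSD gonads it summed to 47.8 to 78.9 FPKM, with 0 of 5 called by limma against XX controls of d37-39 and 2 lower at an unadjusted p under 0.05. In that comparison 2 of 3 tested genes of the surface epithelium and mesothelium list were lower in XX DSD gonads (median log2 difference -0.46), as were 3 of 7 of the pre-granulosa list (median -0.52), beside 4 of the 8 tight junction genes. Over all loci tested in it, 5.65% were higher and 8.11% lower. The surface list summed to 31.9 to 62.6 FPKM in XX DSD gonads and 45.2 to 66.4 FPKM in XX controls, and the pre-granulosa list to 69.8 to 124.8 and 118.3 to 193.6 FPKM. At d41-44, 5 of 7 pre-granulosa genes and 0 of 3 surface genes were lower, beside 29.2% of all loci tested. The surface genes also had 0 lower by unadjusted p.

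The germ cell list, 6 of 9 with a locus, summed to 24.4 to 34.9 FPKM in XX controls and 11.4 to 26.1 FPKM in XX DSD gonads of d37-39. It had 3 of 4 tested genes lower in XX DSD gonads, as *CLDN6* was, against 8.11% of all loci tested. Its defining marker *DDX4*, a gene of later germ cells, averaged at most 0.36 FPKM in any group. The endothelial list summed to 126.5 to 242.5 FPKM over all groups of single embryos. In XX controls of d37-39, 2 of 11 tested genes were higher and 3 lower than in XY controls, against 12.7% and 13.8% of all loci tested. At an unadjusted p under 0.05 by limma, 2 of 7 interstitial genes were higher there and 1 lower. Of 6 macrophage and blood genes, 0 were higher and 3 lower by the same measure. The share of all loci by that measure was not worked out, so the interstitial and macrophage counts have no baseline. The mesonephros and kidney list summed to 70.3 to 104.2 FPKM in XX and 32.3 to 43.8 FPKM in XY controls of d37-39, most of it *EMX2*, which gonads also express. It had 3 of 5 tested genes higher in XX, as *CLDN6*, *CLDN7* and *TJP3* were, against 12.7% of all loci tested. Of its defining markers, *PAX2* averaged at most 0.0177 FPKM in groups of single embryos and *PAX8* 1.08 to 3.4 FPKM. The part of these cell types in the members' values was not tested.

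Other tight junction genes were listed by their role. Among 15 other claudins, 4 were tested between XX and XY controls of d37-39. *CLDN18* was higher in XX controls, at 5.89 ± 0.836 against 0.759 ± 0.325 FPKM (SD, n = 6 and 6, adjusted p = 2.8e-07), as was *CLDN10*, at 3.35 ± 0.602 against 0.637 ± 0.2 FPKM (adjusted p = 4.3e-06). *CLDN4*, a neighbour of *CLDN3* on the minus strand of CFA6 from 6492514 to 6494422, was lower in XX controls, at 0.537 ± 0.267 against 2.94 ± 1.45 FPKM (adjusted p = 0.00068). The median over the 4 was 0.56, beside -0.01 over all loci tested.

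Of the tricellular and angulin proteins, which seal corners where 3 cells meet, 3 of 3 tested genes were higher in XX controls of d37-39: *ILDR2* at 19.2 ± 2.81 against 4.52 ± 0.622 FPKM (adjusted p = 5.0e-08), *MARVELD2* (adjusted p = 0.0018) and *LSR* (adjusted p = 0.037). Of the junctional adhesion molecules, *JAM3* and *JAM2* were lower, at 22.3 ± 1.29 against 46 ± 3.85 FPKM and 57.9 ± 5.92 against 116.7 ± 15.5 FPKM (adjusted p = 1.9e-07 and 9.1e-06). *CXADR*, the coxsackievirus and adenovirus receptor, was higher (adjusted p = 0.00024). Of 15 scaffolds and polarity proteins tested, 8 were higher, among them *MAGI2*, *PARD6G* and *PRKCZ*, and 1 was lower, *MPDZ*, and the list median was 0.33. Over all loci tested, 12.7% were higher and 13.8% lower in XX controls of d37-39. *ILDR2*, *JAM2* and *JAM3* were called in the same direction in all 5 comparisons of the sexes.

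Between XX DSD gonads and XX controls of d37-39, 0 of 2 other claudins tested (also 0 by unadjusted p), 1 of 3 tricellular proteins, 1 of 3 junctional adhesion molecules and 3 of 15 scaffolds were called, beside 5.65% higher and 8.11% lower over all loci tested. Of the scaffolds *CGN* and *PRKCZ* were lower (adjusted p = 0.0064 and 0.022) and *PARD6G* higher (adjusted p = 0.044). *ILDR2* was higher, 25.4 ± 2.13 against 19.2 ± 2.81 FPKM (SD, n = 8 and 6, adjusted p = 0.0075), and *JAM3* was higher by 1.16-fold (adjusted p = 0.021). At d41-44, 1 of 3 tricellular proteins was lower, 1 of 3 junctional adhesion molecules was higher and 1 lower, 3 of 15 scaffolds were higher and 4 lower, and 0 of 2 other claudins were called (also 0 by unadjusted p), beside 19.3% higher and 29.2% lower over all loci tested. Among them *LSR* was 2.14-fold lower (adjusted p = 7.7e-05) and *CXADR* 1.73-fold higher in XX DSD gonads (adjusted p = 1.4e-05). The 4 list medians in the d37-39 comparison lay between -0.01 and 0.20, beside 0.09 over all loci tested.

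For *CLDN3*, *CLDN6* and *CLDN11*, whose group means spanned at least 2 on the log2 scale, the loci most like them were sought among 11058 named loci, by the root mean square difference of centred group means over the 10 groups. *CLDN11* was nearest to *CIDEA* (0.48), *PLEKHB1* (0.62) and *SMPX* (0.68). Those for *CLDN3* were ENSCAFG00000030529 (0.34), *INHA* (0.39), the inhibin alpha subunit, and *RAB20* (0.39). *CLDN6* was nearest to *IGSF9* (0.14), *L1CAM* (0.18) and *CHDH* (0.18). Over the 53 libraries in place of group means, 2 of 3 loci named for *CLDN3*, 1 of 3 for *CLDN11* and 0 of 3 for *CLDN6* remained among the nearest, and *CLDN6* was then nearest to *SOX15*, *LIN28A* and *TFAP2C*.

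The pooled libraries of d34, 1 for each sex, allow no test. *CLDN11* was 16.2 FPKM in the XX and 80.5 FPKM in the XY pool, *CLDN3* was 0.333 and 5.24 FPKM, and *CLDN1* was 1.65 and 2.75 FPKM. The XY pool was thus the higher in each of these, as the XY groups of later ages were. *CLDN6* was 3.07 and 1.99 FPKM, *CLDN7* 1.61 and 0.94 FPKM and *TJP1* 45.3 and 37.2 FPKM in the XX and XY pool. *TJP3* was higher in the XY pool, 12.6 against 5.4 FPKM, the other order than in controls of d37-39 and d44, and *OCLN* was 0.607 and 0.921 FPKM. The XY pool had the lowest relative depth of all libraries, 0.139, and 2.68 FPKM of *FOXL2*, and the part of either in these values was not tested.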

How the data were processed

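FPKM values of 55 libraries were read from the discovery table that the authors deposited with the exon positions of its loci. Per the submitters' notes and Methods, the authors trimmed single-end polyA reads with cutadapt (version 1.5 in the notes), mapped them to CanFam3 with TopHat2 2.0.13, assembled transcripts guided by the annotation and scaled FPKM across libraries with Cuffnorm of Cufflinks 2.2.1. A second FPKM table of annotated genes holds identifiers and was not used here.

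Litter alone pairs embryos across groups. Comparisons used limma 3.58.1 with a mean-variance trend (R 4.3.3), on log2(FPKM + 1). Tests were two-sided, p-values were adjusted by Benjamini-Hochberg across every locus in the fit, and the code was checked on simulated data. Interactions were fitted over 4 groups. Relative depth came from the most frequent ratio of values no higher than 0.15 FPKM between a library and 3 reference libraries. Correlations of libraries within a group ranged from 0.955 to 0.992. Named were all members, the called genes of each list (at most 4, by adjusted p), the 3 loci (largest group mean of 4 FPKM or more) most like a member (that of *TJP3* is not reported here), and overlapping genes. Members, lists and tests were chosen with earlier results of these data known. Alternatives were the pseudocount (0.25), filters, trend, scaling, litter, d39 embryos alone, no d41 embryos, single-name loci and leaving out each library. Insertion genotype, not given in the labels, was not compared.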

Additional observations from a re-analysis of the deposited data

Results flagged for a closer look

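In 8 of 56 pairs of gene and group with 4 to 10 libraries, 14.3%, 1 library lay far from the rest of its group by Dixon's 95% limit, where chance gives about 1 in 20. In 4 of them it was XX DSD d35 replicate 8, with 38.6 FPKM of *TJP3* (next highest 11.2 FPKM), 7.09 FPKM of *CLDN6* (next 2.59 FPKM), 6.68 FPKM of *CLDN7* (next 2.88 FPKM) and 2.59 FPKM of *CLDN3* (next 0.716 FPKM). These 4 come from 1 library and are not independent.

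*CLDN7* in XY control d37-39 replicate 4 was 3.94 FPKM, where the next was 1.46 FPKM. *CLDN6* in XX DSD d41-44 replicate 6 was 3.84 FPKM, where the next was 1.72 FPKM. *CLDN11* in replicate 1 of the same group was 5.79 FPKM, where the next was 2.5 FPKM. *OCLN* in XY littermate d37-39 replicate 1 was 3.46 FPKM, where the next was 2.1 FPKM.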

How the results depend on the processing

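Of 33 differences called for single members, 17 were called under every alternative in which the gene was still tested. None changed direction. The counts of called members moved as follows. With a pseudocount of 0.25 the count for sex in the model pedigree at d37-39 went from 2 to 4, for pedigree in XX at d41-44 from 1 to 3, and for age from 1 to 2 in XX DSD gonads and from 2 to 1 in XY littermates. Without a filter it went from 2 to 4 for sex in the model pedigree at d37-39, and to 0 for pedigree in XY at both ages (from 1 and 3) and for age in XX controls (from 1). With a mean of at least 4 FPKM it was 1 for sex in the model pedigree at d37-39 and d41-44 (from 4) and for pedigree in XY at d41-44, and 3 (from 5) for pedigree in XX at d37-39, as fewer genes were tested. Without trend it was 4, 3, 0, 1 and 0 for sex in the model pedigree at d37-39, pedigree in XX at d41-44, pedigree in XY at d37-39 and d41-44 and age in XX controls. Median-ratio scaling gave 2 for pedigree in XX at d41-44 and 0 for age in XX controls. Over loci with 1 gene name alone, an alternative chosen after seeing the data, it was 4 for sex in the model pedigree at d37-39 and for pedigree in XX at d41-44, 2 for pedigree in XY at d37-39, 3 for age in XX DSD gonads and 4 for age in XY littermates. With litter as a factor, sex in the model pedigree at d41-44 kept 1 call. With litter as a random block the counts were 1 for pedigree in XX at d37-39, 0 for pedigree in XY at d37-39, 0 for age in XX controls and 1 for age in XY littermates. With d39 embryos alone they were 3 for XX and 0 for XY pedigree at d37-39, and without embryos of d41 pedigree in XY at d41-44 had 0. The cause was not tested unless stated.

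The stringent count in XX at d37-39 went from 2 to 1 with litter as a random block. In XY it went from 1 to 0 without a filter and without trend at both ages, with litter as a random block and d39 embryos alone at d37-39, and without embryos of d41. Leaving out 1 library at a time, counts ranged from 5 to 7 and 4 to 4 for sex in controls, 3 to 5, 2 to 3 and 2 to 4 for sex in the model pedigree at d35, d37-39 and d41-44, 4 to 5 and 1 to 3 for pedigree in XX, 0 to 1 and 0 to 3 for pedigree in XY, 0 to 1 for age in controls of each sex, 1 to 2 for age in XY littermates as in XX DSD gonads, and 0 to 0 for the interactions. Stringent counts ranged from 2 to 3 and 1 to 1 in XX and 0 to 1 in XY gonads. Under median-ratio scaling the share of higher among called loci went from 38.7% to 49.1% for sex at d35, 23.5% to 38.4% for pedigree in XY at d41-44, 75.2% to 62.3% for age in XX controls, 30% to 42% in XX DSD gonads and 30.1% to 45% in XY littermates.

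The labels give no replicate numbers to pair samples by, and litter was the block used instead. A litter term could not be fitted for sex in controls of d44, all of 1 litter. The table of annotated genes was not run, since no source used here pairs its identifiers with the members' symbols. Read totals are unknown, so counting error at low FPKM was not estimated, and limma's trend carries it in part.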
